A study of Capra hircus with 10 samples.

Results

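The miR-200 family is a group of 5 miRNA, miR-200a, miR-200b, miR-200c, miR-141 and miR-429, that is abundant in epithelial cells. Its expression was measured by small RNA sequencing in the mammary gland of lactating Alpine goats. Members were taken by name: every mature miRNA called miR-200a, miR-200b, miR-200c, miR-141 or miR-429 in the deposited tables, with or without the arm, whatever species the name came from. This gave 9 of the 1804 mature miRNA of the series, from 5 precursors, 5 of the 3p arm and 4 of the 5p arm. The 5 of the 3p arm bear goat names, while the 4 of the 5p arm were counted under human, mouse or macaque names on the goat precursors. miR-141 was represented by its 3p arm alone.

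All goats had kidded 48 ± 2 days earlier, which is peak lactation, and had received the same diet of orchard grass hay and concentrate for 2 weeks. During the last 48 h before slaughter, 4 goats (Control, libraries L01, L04, L06 and L10) went on eating this diet ad libitum and 6 goats (FD, libraries L02, L03, L05 and L07 to L09) were food deprived, with water available to all. Each library came from 1 goat, so the libraries are biological replicates. Whole pieces of gland were used, with their epithelium, stroma, vessels and blood. In such tissue, fewer epithelial cells and less miRNA per epithelial cell cannot be told apart. Libraries held between 4495512 and 9842009 counts of miRNA, and the deepest was FD library L08.

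A miRNA binds messenger RNA mainly through its seed, the bases 2 to 8 from its 5′ end. The miR-200 family is best known for maintaining the epithelial state: it represses ZEB1 and ZEB2, transcription factors that shut off the gene of the adhesion protein E-cadherin, and these factors in turn repress the miR-200 genes. Loss of this loop accompanies the epithelial to mesenchymal transition, in which cells give up their contacts and polarity. In the lactating gland, the milk-secreting cells and the duct lining are epithelial.

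The sequences of the 3p arm are shown first because they carry nearly all the reads and split the family into a pair of seed groups. They are the mature sequences of the deposited tables, 5′ to 3′, written as DNA, with the seed in capitals.
miR-200b-3p: tAATACTGcctggtaatgatga
miR-200c-3p: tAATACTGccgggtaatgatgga
miR-429-3p: tAATACTGtctggtaatgccg
miR-200a-3p: tAACACTGtctggtaacgatg
miR-141-3p: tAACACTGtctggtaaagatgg
miR-200b-3p, miR-200c-3p and miR-429-3p share the seed AATACTG, which 3 of the 1804 mature miRNA carried, so no miRNA outside the family had it. miR-200a-3p and miR-141-3p share AACACTG, carried by 2 of the 1804. The groups are separated inside the seed by 1 base, C4T from miR-141-3p to miR-200b-3p, with positions counted from 1 at the 5′ end. Likeness outside the seed did not follow the groups throughout. Across groups, miR-200a-3p and miR-200b-3p differed there only by T9C and C17T. Within the AATACTG group, miR-200b-3p and miR-429-3p differed by C9T, A19C and T20C. The closest pairs were within a group. miR-141-3p and miR-200a-3p differed by the single substitution A17C over the 21 bases compared, and miR-200b-3p and miR-200c-3p by T11G and A22G over 22 bases. Reads carrying a sequencing error or a trimmed end could therefore be counted on the partner, and the counts within each of these pairs are uncertain to that extent.

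The sequences of the 5p arm, from the opposite strand of the hairpin, are shown because their seeds group the precursors differently.
miR-200a-5p: cATCTTACcggacagtgctgga
miR-200b-5p: cATCTTACtgggcagcattgga
miR-200c-5p: cGTCTTACccagcagtgtttgg
miR-429-5p: gTCTTACCagacacggttaga
miR-200a-5p and miR-200b-5p, which fall into different seed groups by their 3p arm, had the same 5p seed ATCTTAC, found in 2 of the 1804 mature miRNA. That of miR-200c-5p, GTCTTAC, differed from it by A2G. In the RefSeq gene table of goat assembly ARS1.2, the genes MIR429, MIR200A and MIR200B followed each other with 0 other genes between them, flanked by the protein-coding genes TTLL10 and C16H1orf159. On another chromosome, MIR141 and MIR200C were neighbours with 0 other genes between them, flanked by PHB2 and PTPN6. Each cluster thus holds members of both 3p seed groups.

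The family was among the abundant miRNA of the gland, and most of it was miR-141-3p. The 9 members together took 3.32% ± 0.195 (SD, n = 4) of the counts of a Control library and 2.997% ± 0.386 (SD, n = 6) of those of an FD library. In Control libraries the share was 3.44% in L01, 3.19% in L04, 3.54% in L06 and 3.13% in L10. In FD libraries it ran from 2.57% in L05 to 3.50% in L09, and 3 of the 6 lay below every Control library. The FD mean differed from the Control mean by -9.81% of it, a description given with no test because it is a sum over the members. miR-141-3p alone made up 58.9% ± 2.22 (SD, n = 4) of the family's counts in Control libraries and 62.0% ± 3.08 (SD, n = 6) after food deprivation.

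**Figure D1:**
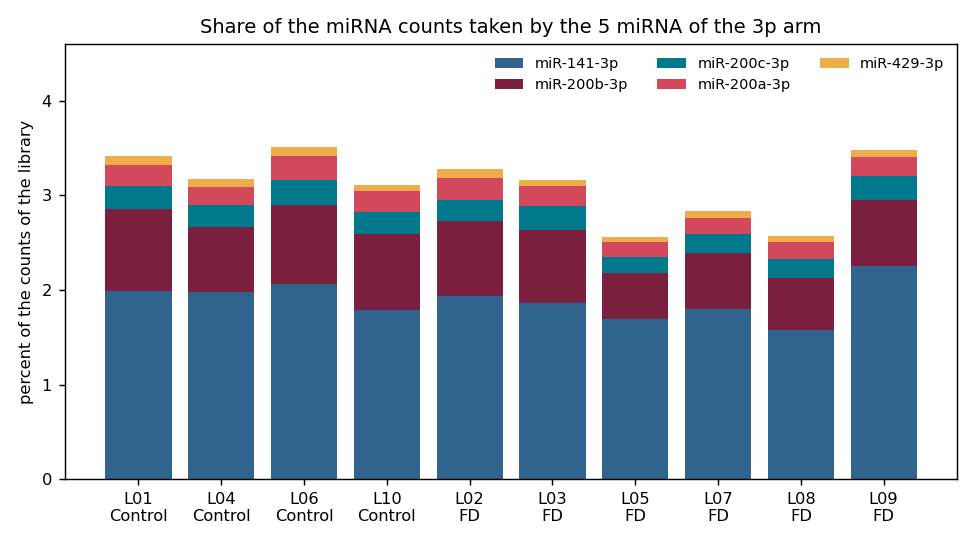
Percent of the miRNA counts of each library (y axis) taken by the 5 miRNA of the 3p arm, stacked, with Control libraries on the left and FD libraries on the right. miR-141-3p is the largest part of every bar, and the lowest bars are those of FD libraries L05 and L08.

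Levels are given as normalized counts, the deposited counts divided by a size factor for each library (the median of its ratios to the geometric mean of each miRNA). The mature sequences have nearly the same length, 21 to 23 bases, and give 1 read per molecule, so no correction for length was made, but ligation of adapters can favour some sequences over others. Over the 10 libraries the mean level was 123668 ± 14554 for miR-141-3p (SD, n = 10) and 46208 ± 9031 for miR-200b-3p (SD, n = 10), ranks 13 and 22 of the 1804 miRNA. miR-200c-3p followed with 14892 ± 1983 (SD, n = 10) and miR-200a-3p with 13236 ± 2070 (SD, n = 10), ranks 40 and 43. Their ranges overlapped, and miR-200c-3p was the higher in 9 of the 10 libraries, with ratios from 0.985 to 1.26. miR-429-3p had 4729 ± 920 (SD, n = 10), rank 71. The other neighbours in this order kept their places in 10 of 10 libraries.

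**Figure D2:**
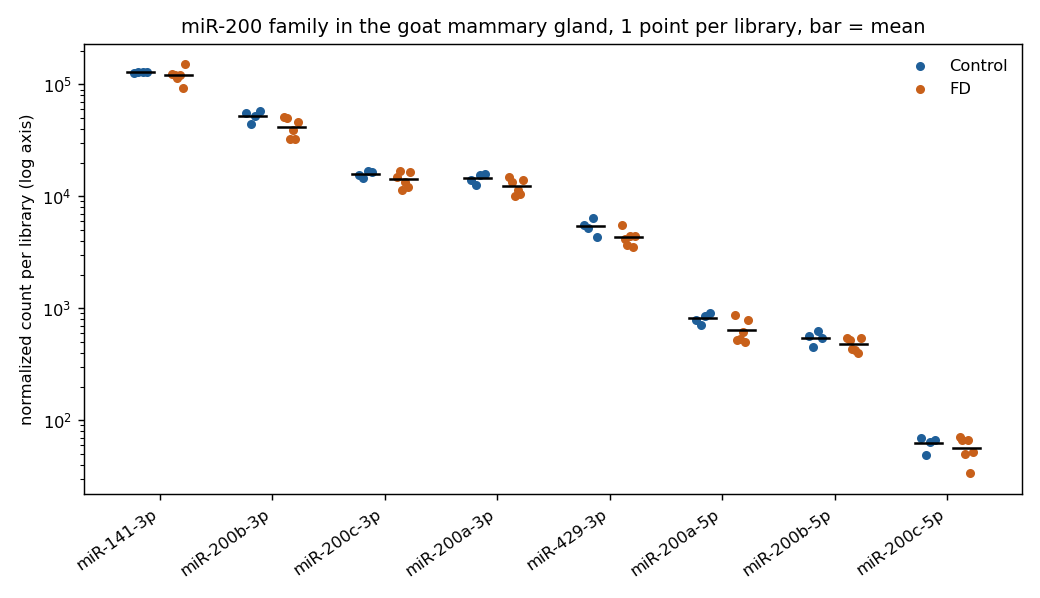
Normalized count (y axis, log scale) of each of the 8 family members with enough reads to be tested, ordered by level, with 1 point per library and a bar at the mean of each diet. The levels run from about 128297 for miR-141-3p to about 62.5 for miR-200c-5p in Control libraries, and the points of the diets overlap for every member.

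Members that share a hairpin cluster did not share a level. miR-141-3p and miR-200c-3p are neighbours, and miR-141-3p had 8.09 ± 0.475 times the counts of miR-200c-3p in Control (SD, n = 4) and 8.53 ± 0.983 times in FD libraries (SD, n = 6). In the other cluster, miR-200b-3p had 3.61 ± 0.220 times the counts of miR-200a-3p in Control (SD, n = 4) and 3.38 ± 0.238 times in FD libraries (SD, n = 6). It had 9.99 ± 2.31 times those of miR-429-3p in Control (SD, n = 4) and 9.78 ± 1.30 times in FD libraries (SD, n = 6). By 3p seed, the AACACTG group had 1.95 ± 0.168 times the counts of the AATACTG group in Control (SD, n = 4) and 2.22 ± 0.276 times in FD libraries (SD, n = 6), with overlapping ranges. The AACACTG excess came from miR-141-3p.

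Whether 48 h without food changed the family was examined with edgeR's quasi-likelihood test over the 490 miRNA that exceeded 28 normalized counts in at least 1 library, with Benjamini-Hochberg adjustment over all 490 and a threshold of 0.1. Of the 9 members, 8 passed this filter, and the exception was miR-429-5p. All 8 had a lower mean in FD libraries, but 0 of the 8 had an adjusted p under 0.1, as was true of 0% of the 490 miRNA tested. The adjusted p-values of the members ran from 0.304 to 0.686 in edgeR's test, where the lowest of any miRNA was 0.152. An unadjusted p under 0.05 was found for 2 of the 8, miR-200b-3p and miR-429-3p, against 15.7% of all miRNA tested. A log2 fold change (FD over Control) below 0 was found for 8 of 8, against 50% of all miRNA tested, and the median was -0.23 for the members and -0.0004 for all. The 8 members are not independent, since they come from 2 clusters and vary together among goats. The direction of each was the same in DESeq2's Wald test, which gave an adjusted p under 0.1 to 0 members and to 5.51% of the 490 miRNA. The diets did not overlap for 2.24% of the 490 miRNA and for 0 of the 8 members.

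miR-200b-3p, the most abundant member of the AATACTG group, had 55182 normalized counts in L01, 44316 in L04, 52642 in L06 and 57932 in L10. FD libraries ran from 32339 to 51245 with a median of 42891. The 6 FD values were all below the Control median, and 3 were below every Control library. The log2 fold change was -0.34 (standard error 0.150), a fold of 0.790 with a 95% interval from 0.631 to 0.990, with an unadjusted p of 0.0416. The adjusted p in edgeR's test was 0.304.

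miR-429-3p, of the same seed and the same cluster, had 5601 normalized counts in L01, 5181 in L04, 6377 in L06 and 4359 in L10. FD libraries lay between 3522 and 5577, around a median of 4269, and 3 of the 6 were below every Control library. Its fold was 0.789 with a 95% interval from 0.626 to 0.994, with an unadjusted p of 0.0452. The adjusted p in edgeR's test was 0.306. Control library L10 stood among the FD values for this member, although it had the highest level of miR-200b-3p.

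miR-200a-3p, which carries the other seed but lies between these genes, had 14120 normalized counts in L01, 12560 in L04, 15541 in L06 and 15970 in L10. FD libraries ran from 10093 to 15011 with a median of 12327, so that the diets overlapped. The fold was 0.840, with a 95% interval from 0.685 to 1.03 and an adjusted p of 0.397 in edgeR's test.

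The cluster of miR-200c and miR-141 showed smaller differences. miR-200c-3p had 15495 normalized counts in L01, 14653 in L04, 16916 in L06 and 16524 in L10, against 11443 to 16848 in FD libraries with a median of 14176. Its fold was 0.883, with a 95% interval from 0.731 to 1.07 and an adjusted p of 0.457 in edgeR's test. miR-141-3p had 126005 in L01, 128129 in L04, 129748 in L06 and 129306 in L10, a narrow range, against 92903 to 150852 in FD libraries with a median of 120797. For miR-141-3p, 5 FD libraries of 6 fell short of the whole Control range and 1, L09, was above them all. This depended on the scaling. As a share of library counts, miR-141-3p ran from 1.79% to 2.06% in Control libraries, and 2 FD libraries lay below that range. The fold of miR-141-3p was 0.929 (95% interval 0.779 to 1.11, adjusted p = 0.638 in edgeR's test). These intervals leave room for both a decrease of the size seen for miR-200b-3p and no change. Whether the folds of the clusters differ was not tested.

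**Figure D3:**
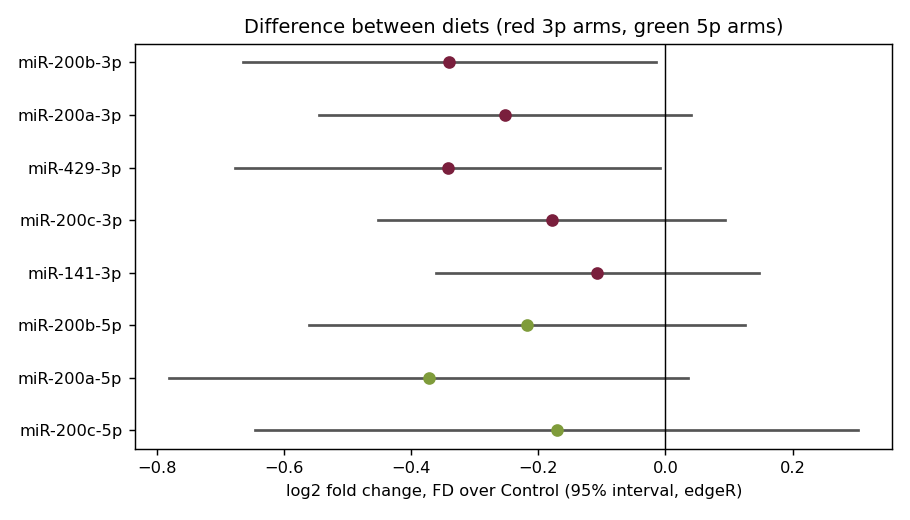
Log2 fold change of each tested member (x axis, FD over Control, point) with its 95% interval (line) from edgeR's quasi-likelihood test, 3p arms in red and 5p arms in green. All 8 points lie below 0, and only the intervals of miR-200b-3p and miR-429-3p end below it, at -0.015 and -0.0086.

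The spread between goats bears on these comparisons. The coefficient of variation had a median of 10.9% over the 8 members in Control libraries and of 16.6% in FD libraries, against 22.4% and 23.3% over all 490 miRNA tested. For miR-141-3p it was 1.30% in Control and 15.5% in FD libraries. For miR-200c-3p it was 6.44% and 15.9%. The lower end of the FD range was set by L08 and L05 for the 5 members of the 3p arm.

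The 5 members of the 3p arm varied together from goat to goat. Over the 10 libraries, the Pearson correlation of log2(normalized count + 1) was above 0 in 10 of 10 pairs, with a median of 0.707 and a range from 0.547 to 0.958, while the median over the 119805 pairs of all tested miRNA was -0.0020. In a two-sided permutation test with Benjamini-Hochberg adjustment over the 10 pairs, 8 pairs had an adjusted p under 0.05. Libraries share their size factor and depth across miRNA, which is why the value over all pairs is given beside these. The quartiles over all pairs were -0.312 and 0.314. Those pairs were not matched to the members for level, so they cannot show how much of these correlations comes from scaling.

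The closest pair was miR-200b-3p and miR-200a-3p, neighbours in the genome with different 3p seeds. Their Pearson correlation was 0.958 (permutation p = 6e-05, adjusted 0.0006) and Spearman's rho was 0.939 (permutation p = 0.00025, adjusted 0.0025). With each diet centred on its own mean, the correlation was 0.940 (exact permutation p = 0.00156 over the 17280 rearrangements within diets, adjusted 0.0156), so it did not rest on the difference between diets. Without L05 and L08, the libraries farthest from the median of miR-200b-3p, it was 0.900 (exact permutation p = 0.00273, adjusted 0.0273).

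Pairs across the clusters were nearly as close for miR-200c-3p. Its correlation with miR-200b-3p was 0.905 (permutation p = 0.00089, adjusted 0.0033; Spearman's rho 0.721, permutation p = 0.0227, adjusted 0.0454) and with miR-200a-3p 0.890 (permutation p = 0.00099, adjusted 0.0033; rho 0.758, permutation p = 0.014, adjusted 0.0435). Within diets these were 0.888 and 0.862, both with an adjusted exact permutation p of 0.0289. Without L05 and L08 they were 0.668 and 0.687, and their adjusted exact permutation p was 0.228, so that their size rests in part on these FD libraries. Reads of miR-200b-3p and miR-200c-3p could be counted on the partner, as said above, which could raise the correlation of this pair. That was not tested.

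miR-200c-3p and miR-141-3p, although neighbours, had a Pearson correlation of 0.739 (permutation p = 0.00852, adjusted 0.0213; rho 0.745, permutation p = 0.0174, adjusted 0.0435), which was 0.708 within diets (adjusted exact permutation p = 0.165). It was 0.435 without L05 and L08 (exact permutation p = 0.279). The correlation of miR-200b-3p with miR-141-3p was 0.669 (permutation p = 0.0252, adjusted 0.0315; rho 0.661, permutation p = 0.0428, adjusted 0.0629) and 0.039 without these libraries. That of miR-200b-3p with miR-429-3p was 0.700 (permutation p = 0.0245, adjusted 0.0315; rho 0.612, permutation p = 0.0661, adjusted 0.0735) and 0.286 without them, so the size of both depended on these libraries. L05 and L08 were picked as extreme in miR-200b-3p, and leaving out extremes by itself lowers a correlation. With 1 library left out, the correlation of miR-200b-3p with miR-429-3p was 0.617 (L05), 0.581 (L08) or 0.828 (L10). Within diets, 3 of the 10 pairs had an adjusted exact permutation p under 0.05, those among miR-200a-3p, miR-200b-3p and miR-200c-3p. The number of pairs under 0.05 over all libraries, 8, was 3 without L08 and 4 without L01, L02, L05 or L06.

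**Figure D4:**
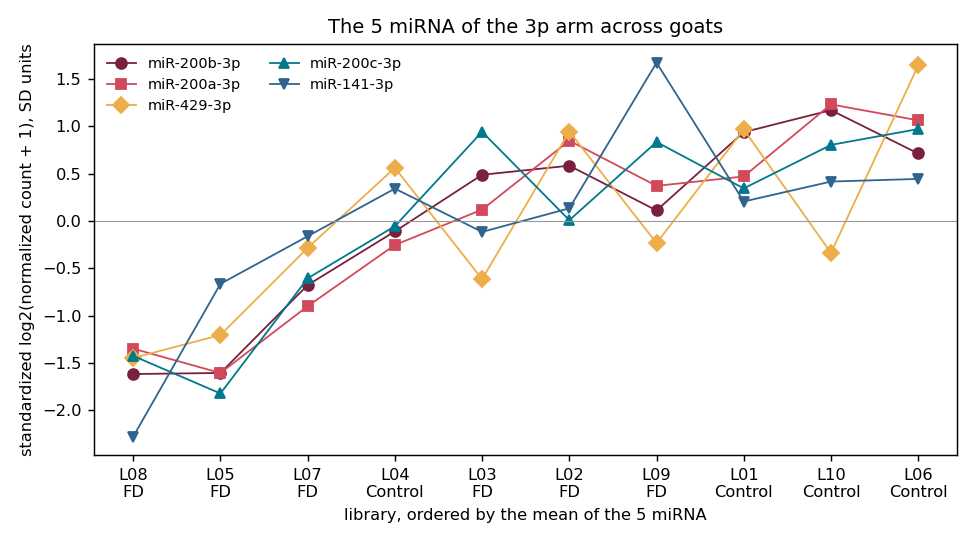
Standardized log2(normalized count + 1) of the 5 members of the 3p arm (y axis, SD units) in each library, ordered by their mean (x axis). miR-200b-3p and miR-200a-3p run side by side, FD libraries L08 and L05 are lowest with means of -1.62 and -1.38, and miR-141-3p leaves the others in L09 at 1.67.

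L05 and L08, lowest in the family, were also high in some miRNA known from other cells. The summed level of 8 stromal miRNA found of the 9 listed (miR-143, miR-145, miR-199 and miR-214, typical of smooth muscle and fibroblasts) was highest in L05, at 1136233 normalized counts. In L08 it was 830827, place 5 from the highest of the 10 libraries. The ranges were 690407 to 928572 in Control and 579433 to 1136233 in FD libraries. miR-143-3p made up 93.9% to 97.4% of this sum, and over the other 7 stromal miRNA L08 and L05 were in places 3 and 4 of the 10 libraries. Of the 8, miR-143-5p and miR-145-5p had log2 fold changes below 0, -0.34 and -0.15. That of the 3 leukocyte miRNA found of the 6 listed (miR-150-5p and both arms of miR-223) was highest in L08, at 12280, and next in L05, at 9856, in ranges of 2715 to 5192 in Control and 3587 to 12280 in FD libraries. miR-155-5p, which leukocytes also express and which is not in that sum, had a mean of 6142 ± 2160 in Control libraries (SD, n = 4) and of 5718 ± 1017 after food deprivation (SD, n = 6), with a log2 fold change of -0.12 (adjusted p = 0.781 in edgeR's test). The endothelial pair, both arms of miR-126, summed to between 117544 and 144955 in Control and to between 136542 and 197735 in FD libraries. This sum was highest in L09, with L05 in place 2 and L08 in place 4. The 3 erythroid miRNA found of the 6 listed, miR-451-5p and both arms of miR-144, ran from 3750 to 6061 and from 5961 to 8756. Their sum was highest in L02, with L05 in place 2 and L08 in place 7. None of these 16 miRNA of the 4 lists had an adjusted p under 0.1 in edgeR's test. This depended on the test: DESeq2's gave an adjusted p of 0.0688 to miR-126-3p, 0.0664 to miR-223-3p and 0.0918 to miR-223-5p, all higher in FD libraries, where it called 5.51% of all miRNA. In edgeR's test, an unadjusted p under 0.05 was found for 0 of the 8 stromal, 2 of the 2 endothelial, 3 of the 3 leukocyte and 1 of the 3 erythroid miRNA, all 6 higher in FD libraries, against 15.7% of all miRNA tested in either direction. Their part in the lower levels of the miR-200 family was not tested.

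Of the other epithelial miRNA, none had a lower FD mean, and none passed the adjusted threshold in edgeR's test. Of the 10 names listed, 5 were found, with a median log2 fold change of 0.16. The lowest was 0.0021 (standard error 0.314), that of miR-96-5p. No direction can be read for miR-96-5p, for miR-183-5p (0.06, standard error 0.297) or for miR-182-5p (0.16, standard error 0.280). miR-205-5p, which also represses ZEB1 and ZEB2 and is typical of basal and myoepithelial cells, averaged 13437 ± 5835 normalized counts over the Control goats (SD, n = 4) and 17977 ± 5870 over the FD goats (SD, n = 6), an adjusted p of 0.486 in edgeR's test. miR-182-5p averaged 5511 ± 2506 over the Control goats (SD, n = 4) and 6200 ± 1668 over the FD goats (SD, n = 6). miR-184-3p averaged 3.04 ± 4.55 over the Control goats (SD, n = 4) and 19.8 ± 18.6 over the FD goats (SD, n = 6), with counts down to 0. It was the 1 miRNA of the 5 with an unadjusted p under 0.05 (15.7% of all miRNA tested), at 2.80 on the log2 scale (standard error 1.03, adjusted p = 0.266 in edgeR's and 0.0918 in DESeq2's test). The summed level of the 5 was between 13307 and 30258 in Control and between 15594 and 31909 in FD libraries, and was highest in L08, where the mean standardized level of the miR-200 family was lowest. Control library L10 was in place 2 for this sum, and there the mean standardized level of the family was 0.657. The sum averaged 19777 in Control and 25066 in FD libraries, so most of it was miR-205-5p.

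Among other miRNA known for acting on the epithelial to mesenchymal transition, none passed the adjusted threshold in edgeR's test. Over all miRNA tested, 50% had a log2 fold change below 0 and 15.7% an unadjusted p under 0.05. Of 7 tested that oppose it, 0 had a log2 fold change below 0, and 1 had an unadjusted p under 0.05, miR-34a-5p, a target of p53, at 0.69 on the log2 scale (standard error 0.263, adjusted p = 0.269). The others were miR-34b-5p, miR-34c-5p, miR-101-3p, miR-192-5p, miR-215-5p and miR-205-5p. These 7 are not independent, since some belong to the miR-34 family, and miR-205-5p was already counted among the epithelial miRNA above. Of 8 tested that favour the transition, 3 had a log2 fold change below 0, and 2 had an unadjusted p under 0.05, the neighbours miR-221-3p (0.93, standard error 0.359, adjusted p = 0.269) and miR-222-3p (0.78, standard error 0.278, adjusted p = 0.237). For miR-222-3p the adjusted p was 0.0918 in DESeq2's test. The shares of 1 in 7 and 2 in 8 are close to that over all miRNA. The abundant miR-10b-5p had a log2 fold change of 0.09 (adjusted p = 0.79).

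The 5p arm gave few reads. The 5p arm made up 5.03% of the counts of mir-200a, 1.08% of those of mir-200b and 0.386% of those of mir-200c over all libraries. miR-200a-5p had 782 normalized counts in L01, 713 in L04, 850 in L06 and 908 in L10, against 498 to 868 in FD libraries with a median of 571, and 4 of the 6 were below every Control library. Its fold was 0.773 (95% interval 0.582 to 1.03, adjusted p = 0.357 in edgeR's test). miR-200b-5p averaged 546 ± 73.1 over the Control goats (SD, n = 4) and 476 ± 65.3 over the FD goats (SD, n = 6), with an adjusted p of 0.468. miR-200c-5p, counted between 42 and 87 times per library, averaged 62.5 ± 9.14 over the Control goats (SD, n = 4) and 56.2 ± 14.0 over the FD goats (SD, n = 6), with an adjusted p of 0.686.

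miR-429-5p was counted once in L03 and once in L08 and had 0 counts in the other libraries, where a count of 0 allows up to 3. These 2 counts stood against 47849 of miR-429-3p, a share of 0.0042% of the counts of mir-429 (exact 95% interval 0.00051% to 0.0151%, counting error only). Its reads were counted with the macaque sequence printed above, so a goat 5p arm that differs from it could have been missed.

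The balance of the arms was compared within hairpins, where depth and scaling cancel. For each of the 114 precursors with both arms above the filter, the difference of log2(3p + 1) and log2(5p + 1) was compared between diets by exact permutation (two-sided, 210 arrangements), with adjustment over all 114. An adjusted p under 0.1 was found for 0 of the 3 precursors of the family, mir-200a, mir-200b and mir-200c, and for 0% of all 114. With 210 arrangements, this threshold was nearly out of reach for a few hairpins. The smallest exact permutation p of all 114 was 0.00476, for mir-335, and its adjusted p was 0.543. The absence of calls therefore says little about the family. Without adjustment, the smallest exact permutation p of the 3 precursors of the family was 0.143, for mir-200b.

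For mir-200a, the 3p excess on the log2 scale averaged 4.16 ± 0.028 over the Control goats (SD, n = 4) and 4.30 ± 0.206 over the FD goats (SD, n = 6), a difference of 0.14 (exact permutation p = 0.233, adjusted 0.727), which was 0.0645 without L03. In the 4 Control libraries miR-200a-3p had 17.6 to 18.3 times the counts of miR-200a-5p, while the FD libraries reached 21.1 in L08 and 25.4 in L03. For mir-200b it averaged 6.59 ± 0.136 over the Control goats (SD, n = 4) and 6.45 ± 0.137 over the FD goats (SD, n = 6), a difference of -0.14 (exact permutation p = 0.143, adjusted 0.651). For mir-200c it averaged 7.98 ± 0.170 over the Control goats (SD, n = 4) and 7.98 ± 0.328 over the FD goats (SD, n = 6). The arms of a hairpin also moved together over the 10 libraries, with Pearson correlations of 0.890 for mir-200b, 0.871 for mir-200a and 0.616 for mir-200c, given as a description.

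**Figure D5:**
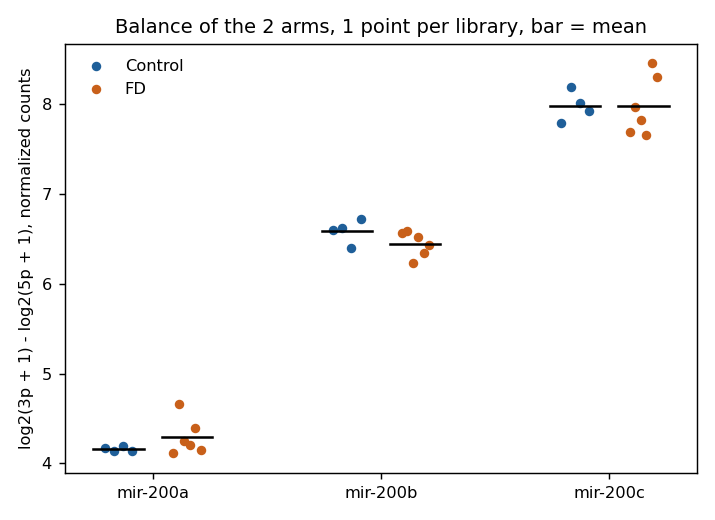
Log2 excess of the 3p over the 5p arm (y axis, normalized counts with 1 added) for the 3 precursors with both arms tested, with 1 point per library and a bar at the mean of each diet. The hairpins keep separate levels, the diets overlap in each, and FD library L03 stands highest for mir-200a at 4.67.

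The miRNA outside the family whose levels over the 10 libraries were most like the family were found by their Pearson correlation with the mean of the 5 standardized members of the 3p arm, over the 482 other miRNA tested. The 5 highest were miR-98-3p (0.902), miR-103-3p (0.894), miR-30b-3p (0.894), miR-423-5p (0.889) and miR-190a-5p (0.870). Within diets these values were 0.860, 0.916, 0.877, 0.840 and 0.865. They are the largest of many and are given with no test. All 5 had lower means in FD libraries, and miR-423-5p averaged 9362 ± 517 normalized counts over the Control goats (SD, n = 4) and 7717 ± 1010 over the FD goats (SD, n = 6), with an edgeR adjusted p of 0.269. miR-103-3p, which lies within pantothenate kinase genes, is also in the list of miRNA favouring the transition. It averaged 58074 ± 4296 over the Control goats (SD, n = 4) and 53066 ± 11620 over the FD goats (SD, n = 6).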

How the data were processed

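The authors deposited raw read counts for each mature miRNA in every library. Their pipeline trimmed adapters (Cutadapt), retained inserts of 17 to 28 nt, aligned them on goat assembly CHIR_1.0 and quantified them with miRDeep2 against known precursors and those it predicted, dropping duplicates. Base calling used CASAVA 1.8.2 per the submitters' processing notes. The mismatches allowed in counting are not given in the sources used here. No molecular identifiers were described, so intervals of counts cover counting error only. The deposited columns of normalized values and the table of predicted precursors were not used.

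Size factors were those of DESeq2 on all 1804 miRNA. Diets were compared with edgeR (TMM, glmQLFit, glmQLFTest, two-sided, no covariates). The standard error is the size of the log2 fold change divided by the square root of F. In a simulated table of 490 miRNA with 200 altered, edgeR recovered 42% of changes of 1.5-fold and 86% of 2-fold between 4 Control and 6 FD libraries. The adjustment is more lenient when many miRNA change, so over all miRNA these shares are upper guides for a table where few do. They were not worked out for the members, whose median spread between goats was smaller. Correlations used 100000 permutations. Members and lists were chosen with earlier results of these data known. Beside the members, the miRNA named are the 5 most like the family and those of the marker and pathway lists. Alternatives were DESeq2, limma-voom, other scalings and filters, another pseudocount and each library left out. Fits ran in R 4.3.3 (edgeR 4.0.16; DESeq2 1.42.0; limma 3.58.1). Permutations ran in Python 3.11.15 (scipy 1.17.1), on tables read by pandas 2.3.3 and numpy 2.4.6, and plots used matplotlib 3.10.9.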

Additional observations from a re-analysis of the deposited data

How the results depend on the processing

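In 18 other fits (DESeq2, limma-voom, 3 scalings, 3 filters on low counts and each library left out), 0 members had an adjusted p under 0.1, and each of the 143 log2 fold changes of members was below 0 as in the reported fit. The lowest adjusted p of a member was 0.189, without L02. The number of members with an unadjusted p under 0.05, 2 as reported, was 0 with size factors or library totals as the scaling and without L01, L05, L06, L07 or L08, and 4 without L02 or L09. The log2 fold change of miR-141-3p ran from -0.20 without L09 to -0.073 without L05. Leaving out 1 library also moved miR-200c-3p to -0.11 (L05), miR-429-3p to -0.23 (L06), miR-200b-5p to -0.33 (L04) or -0.13 (L06), and miR-200c-5p to -0.26 (L02), -0.29 (L04) or -0.10 (L08), each by over 1.5 times. The difference of arm balance for mir-200c, near 0 as reported, had the opposite sign without L01 (-0.0593), L08 (-0.0897), L09 (-0.0589) and L10 (-0.0152), and ran from -0.0897 to 0.0759 with 1 library left out. The number of pairs of members correlated at an adjusted p under 0.05, 8 as reported, ran from 3 to 9 with 1 library left out and was 6 when counts were scaled by library totals. The difference of the family share, relative to the Control mean, ran from -12.8% to -7.27% with 1 library left out and was -14.5% without the 10 most abundant other miRNA in the total. No paired analysis was possible because the labels give no number shared between goats of different diets. The depth limits miR-429-5p and miR-200c-5p. At this number of goats, changes of 1.5-fold or less, and larger ones too, could miss the adjusted threshold. How large a change could be is read from the 95% intervals of the fold. Their lower ends ran from 0.582 (miR-200a-5p) to 0.779 (miR-141-3p) over the tested members. The upper ends ran from 0.990 (miR-200b-3p) to 1.23 (miR-200c-5p).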
